A study of Mus musculus with 12 samples.

Results

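The response of B16 cells to interferon-gamma (IFNG) was taken from 6 of the 12 RNA-seq libraries of the series, chosen by their labels as all libraries of the B16 line. B16 is an established pigmented mouse melanoma line of C57BL/6 origin. The treated group was 3 libraries of B16 cells given 10 ng/ml IFNG, a recombinant mouse cytokine, and harvested after 48 h, and the control group was 3 libraries of untreated B16 cells at the same time. Both groups were grown in the same serum-containing medium with antibiotics, and the other 6 libraries of the series, from the line YUMM1.1, were not used. No label states that the 3 libraries of either group were grown apart. The p-values thus measure the spread between these samples alone, which may be technical.

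IFNG binds a receptor made of IFNGR1 and IFNGR2 chains, whose kinases JAK1 and JAK2 start a signal that reaches gamma-activated sites (GAS) in the promoters of its target genes. Factors induced there, IRF1 among them, act with STAT2 and IRF9 at interferon-stimulated response elements (ISRE). The response is known in melanoma cells for raising antigen presentation and for slowing growth.

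Library totals ran from 2573805 to 7888257 counts over 55416 gene IDs, so that 1 read stood for 0.127 CPM (reads scaled to a common library total) in the deepest library and 0.389 CPM in the shallowest. Of these IDs 11240 had enough reads to be tested, and these took in 99.7% or more of every library. IFNG 1 and IFNG 2 lay closest to each other (chi-square per degree of freedom of 1.23, above the 1 that sampling alone gives), while IFNG 3 lay at 18.4 and 18.04 from them. The controls lay at 1.57 to 3.42 from one another. The first principal component held 87.2% of the variance and separated treated from control libraries, and the second, at 7.20%, had IFNG 3 at the far end from IFNG 1 and IFNG 2. The 9 melanocyte lineage markers were all tested and summed to 35090 to 37100 CPM in the treated libraries and 29080 to 29280 CPM in the controls. Of 13 leukocyte markers 6 had no read and 1 was tested, and their sum was 4.82 to 7.52 CPM in the treated libraries and 2.54 to 6.99 CPM in the controls. Of 4 endothelial and 4 keratinocyte markers none had enough reads to be tested. The strand of the counting is not given in the sources used here, and 93 of the 483 named genes share exon bases with another coding gene, so that reads there could belong to either. Among them are Stat3 with Stat5a, Irf7 with Phrf1, Irf9 with Rnf31, Igtp with Irgm2, Parp9 with Dtx3l, Psmb9 with Tap1, Nfkb2 with Psd, Ctsb with Fdft1, Atf5 with Nup62, Col4a1 with Col4a2 and Srebf1 with Rai1.

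IFNG changed the level of many genes, in like numbers in both directions, and most of the changes were small. By edgeR's quasi-likelihood test 2486 genes were called higher and 2472 lower at a Benjamini-Hochberg adjusted p below 0.05. With library totals in place of TMM factors the split was 1702 higher and 3872 lower. At TMM scale the calls were 44.1% of the tested genes, 22.1% higher and 22.0% lower, and these shares are the background for each list below. Each change is a log2 ratio, treated over untreated, on TMM-scaled libraries, and is given with its SE. The median over all tested genes was -0.01 on that scale and -0.20 where only library totals set the scale, so a change is relative to it. Of the rises 1597 lay under a log2 of 1 (median 0.57), and of the falls 1651 lay above -1 (median -0.59). At the far ends 159 rises reached a log2 of 4 (median 6.46) and 188 lay between 2 and 4, while 227 falls reached -2 (median -2.72). The share called higher at a log2 of at least 1 was 7.91%, and the share called lower at -1 or less was 7.30%. In 90.5% of called genes the treated and control values did not overlap. The test favours such genes and the share over all tested genes is not given, so this is no separate support for the calls. The same holds wherever called genes are said below not to overlap between the groups.

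**Figure D1:**
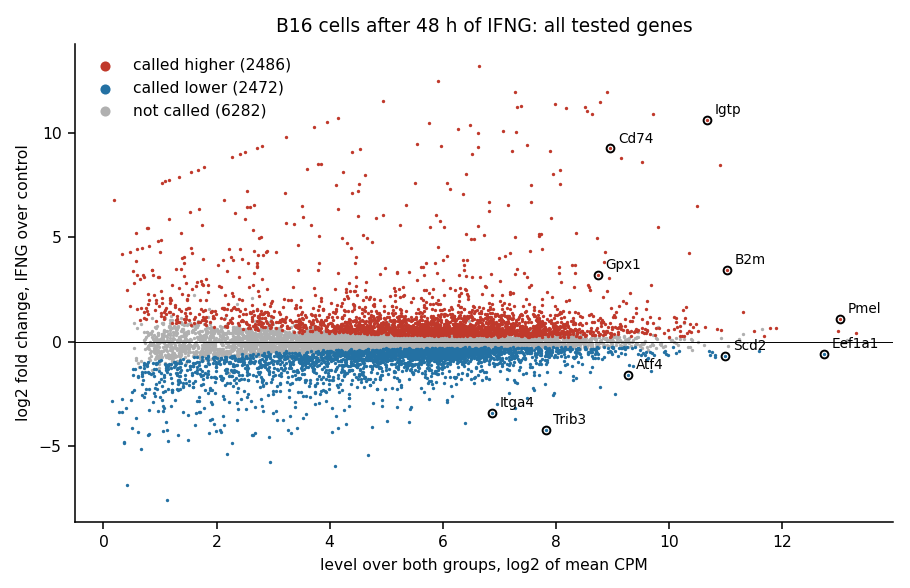
Each point is 1 of 11240 tested genes, with its level over both groups (log2 of the mean CPM) on the x axis and the log2 fold change of IFNG-treated over control B16 cells on the y axis. The 2486 genes called higher are red, the 2472 called lower are blue and the 6282 not called are grey, and the named rises reach further from 0 than the named falls.

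Induced genes took a larger share of the counts in treated libraries. The 889 genes called higher at a log2 of at least 1 took 15.5%, 15.4% and 15.7% of the counts of IFNG 1, 2 and 3, against 4.53%, 4.47% and 4.44% of the counts of control 1, 2 and 3. The 159 genes with a log2 of at least 4 alone held 4.14% to 4.25% of the treated counts and 0.0592% to 0.0628% of the control counts. The 821 genes called lower at -1 or less held 1.21% to 1.45% of the treated counts and 4.50% to 4.60% of the control counts. In each of these gene sets, which were chosen on the same libraries, the groups stayed far apart and the libraries of a group close together. In bulk RNA, fewer cells of a kind and less RNA per cell cannot be told apart.

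**Figure D2:**
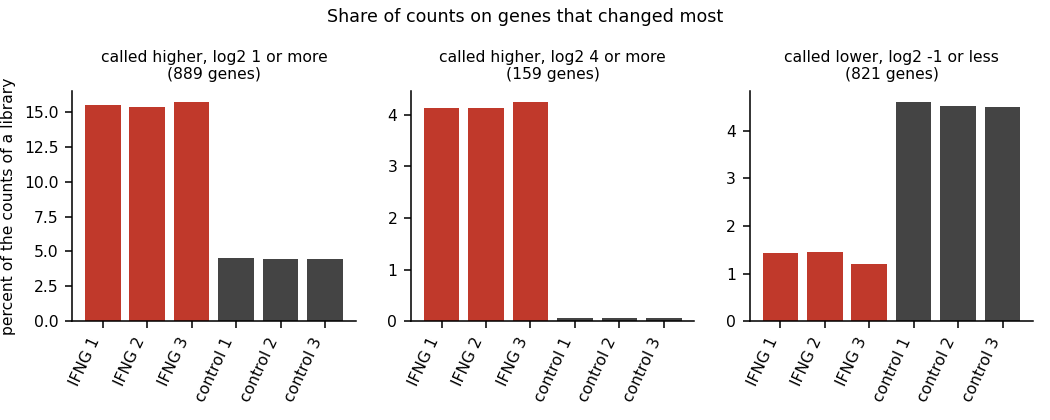
Bars give the percent of the counts of each library (IFNG 1 to 3 in red, control 1 to 3 in grey) on 3 sets of called genes, with the y axis of each panel starting at 0. The 889 genes of the left panel hold 15.4% to 15.7% in the treated libraries and 4.44% to 4.53% in the controls.

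Measured per kb of exon, the 15 largest gains held genes of antigen presentation, interferon-inducible GTPases and pigment genes, beside others of different roles. B2m, the light chain of MHC class I (ENSMUSG00000060802, chromosome 2, 122147686 to 122153083 on GRCm38), stood at 4390 CPM per kb with IFNG and 462 CPM per kb without. Pmel, the fibril protein of melanosomes, stood at 4763 CPM per kb with IFNG and 2524 CPM per kb without, and it shares exon bases with Cdk2 and Dgka. Igtp, an immunity-related GTPase, stood at 1612 CPM per kb with IFNG and 1.26 CPM per kb without, and Gbp2, a guanylate-binding protein, at 1519 CPM per kb with IFNG and 5.08 CPM per kb without. Ptgds, which makes prostaglandin D2, stood at 2169 CPM per kb with IFNG and 909 CPM per kb without, and the antiviral membrane protein gene Bst2 at 949 CPM per kb with IFNG and 76.5 CPM per kb without. Csrp1, a LIM domain protein of the cytoskeleton, stood at 889 CPM per kb with IFNG and 356 CPM per kb without (log2 1.51). The 15 largest gains held Ifitm3, Cd74, Ifi47, H2-D1, H2-K1, Irgm1, Tyrp1 and Mlana as well, of which Tyrp1 (log2 0.42, adjusted p = 0.00424) was not called with library totals (adjusted p = 0.060).

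The 15 largest losses per kb held genes of translation and of the response to amino acid shortage, beside others of different roles. Eef1a1, the elongation factor that brings aminoacyl-tRNA to the ribosome, had 5169, 5180 and 4978 CPM in treated libraries, against 8416, 8613 and 8834 CPM in controls (log2 -0.56, SE 0.07, adjusted p = 0.000196). No overlap between the groups was a condition of this ranking, so the separation of its libraries adds nothing to the fall. Fth1, the ferritin heavy chain, averaged 1242 ± 39.8 CPM in treated cells and 2345 ± 63.7 CPM in untreated cells (SD, n = 3 each, as in all values of this form), and the autophagy receptor gene Sqstm1 1211 ± 170.2 CPM in treated cells and 2166 ± 129.5 CPM in untreated cells. Ckb, the brain-type creatine kinase, fell, with 161, 151 and 117 CPM in treated libraries, against 965, 913 and 885 CPM in controls (log2 -2.50, SE 0.13, adjusted p = 4.56e-07). Eef2 was among the losses (log2 -0.44, adjusted p = 0.0162), and without control 1 it was not called (adjusted p = 0.0532). Among the other losses were Rplp0, Rps21, Rps29, Rpsa, Eef1b2, Atf4, Asns, Trib3 and Scd2, of which Rps21 was not called without control 1 (adjusted p = 0.0662).

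**Figure D3:**
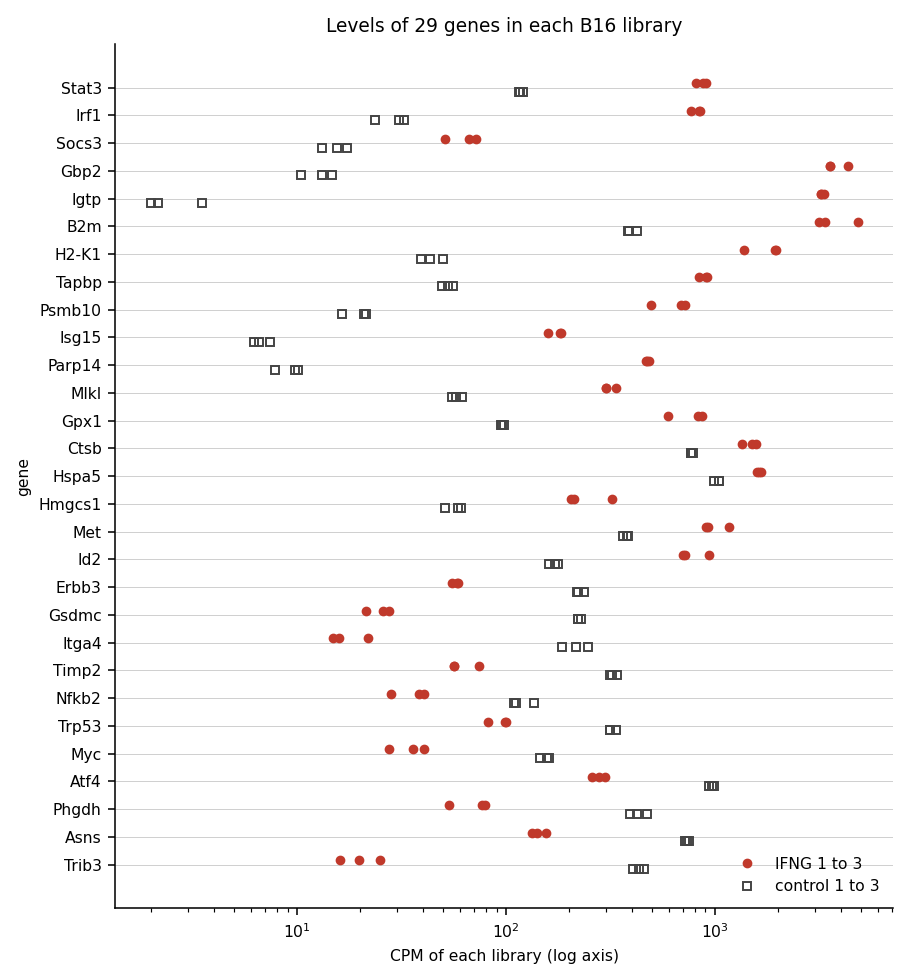
Levels of 29 genes in every B16 library, in CPM on a log scale, with IFNG 1 to 3 as red dots above control 1 to 3 as open squares in each row. For each of the 29 genes the treated and control libraries do not overlap, from Igtp with 3219 to 3333 CPM against 1.99 to 3.50 CPM to Trib3 with 16.1 to 25.0 CPM against 406 to 458 CPM. The genes were picked with their values known, so this is no separate support for the calls.

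Stat2 and Stat3 rose, while the receptor genes did not rise together. Stat3, a transducer of interleukin-6 family signals, had 903, 873 and 811 CPM in treated libraries, against 115, 121 and 117 CPM in controls (log2 3.07, SE 0.09, adjusted p = 8.94e-09). Stat2 had 253, 241 and 218 CPM in treated libraries, against 17.4, 17.7 and 15.5 CPM in controls (log2 3.99, SE 0.12, adjusted p = 9.08e-09). In both genes the lowest treated library lay far above the highest control. Jak2 rose by less, 75.8, 71.8 and 88.3 CPM with IFNG and 40.3, 45.01 and 44.7 CPM without it (log2 1.06, SE 0.12, adjusted p = 7.77e-05). Jak1 was not called (log2 0.01, adjusted p = 0.931). Ifngr2, the chain that carries JAK2, fell (log2 -0.88, SE 0.10, adjusted p = 8.65e-05). Ifngr1, the chain that binds the ligand, had 10.2, 8.35 and 11.9 CPM with IFNG and 14.3, 16.3 and 17.5 CPM without it (log2 -0.44, adjusted p = 0.0696, or 0.0121 without IFNG 3). Of the receptor chains for type I interferon Ifnar2 rose (log2 0.75, adjusted p = 0.00179). The call of Ifnar1 (log2 0.38, adjusted p = 0.0116) was lost without control 1 (adjusted p = 0.0681), without control 2 (0.0754) and with library totals (0.147). In this list 7 of 15 tested genes were called higher and 1 lower, with a median log2 of 0.22. Without IFNG 3, 2 were called lower, and library totals gave 6 higher and 2 lower.

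Of the interferon regulatory factors 5 of 6 were called higher, and library totals added 1 lower (median 3.54, or 2.59 with Irf4 at the lower end of its counting interval). Irf7, the amplifier of type I interferon, had 54.3, 54.3 and 46.1 CPM in treated libraries, against 2.28, 1.99 and 1.94 CPM in controls (log2 4.78, SE 0.18, adjusted p = 4.83e-08). Irf9, the DNA-binding subunit of the ISRE complex, had 63.97, 64.6 and 70.6 CPM in treated libraries, against 12.8, 11.6 and 12.4 CPM in controls (log2 2.62, SE 0.12, adjusted p = 2.02e-07). Irf2, an antagonist of IRF1, rose by 1.18. Irf4 had 51 reads in the treated libraries and 2 in the controls, a ratio of 22.4 (95% interval 5.88 to 189.6). Such intervals, and the floors used below, cover counting error only. Irf3, which acts upstream of type I interferon, was not called (log2 -0.35, adjusted p = 0.0787). Without IFNG 1 it was called lower (adjusted p = 0.0392). Among 17 brakes of JAK-STAT signalling 4 were called higher: Socs1 with 55.1, 53.9 and 31.5 CPM with IFNG and 1.65, 1.59 and 1.17 CPM without it (log2 5.09, SE 0.32, adjusted p = 1.98e-06), Usp18, Socs3 with 71.99, 66.4 and 50.8 CPM with IFNG and 15.6, 17.3 and 13.2 CPM without it (log2 2.20, SE 0.17, adjusted p = 8.56e-06) and Socs2 (log2 0.93, adjusted p = 0.0386). The call of Socs2 was lost by DESeq2 (adjusted p = 0.0935), by limma-voom (0.0561), with library totals (0.0815) and without any 1 library but IFNG 2 (0.0642 to 0.150). Ptpn6, the phosphatase SHP-1, fell (log2 -0.77, SE 0.15, adjusted p = 0.00245). The number of brakes called lower was 2, and 1 without IFNG 1 or without any 1 control, while library totals gave 3 higher and 4 lower. At 4 of 17 the share called higher was near the 22.1% of all tested genes. The share called lower, 2 of 17, was below their 22.0%.

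The interferon-inducible GTPases, which attack the vacuoles of intracellular pathogens, held a sizeable share of the transcripts in treated cells and were nearly absent without IFNG. Genes of this list took 1.64% to 1.92% of the counts of the treated libraries and 0.0106% to 0.0113% of the counts of the controls. Of 21 tested members 20 were called higher, with a median log2 of 10.00, or 8.45 where the 10 members with at most 3 control reads are set at their bound. Members with so few control reads, here and in the lists below, passed the filter only through their treated reads. All 20 tested genes with 0 control reads were called higher, so calls of such members are no separate support. Igtp (ENSMUSG00000078853, chromosome 11, 58199556 to 58207591) had 3226, 3219 and 3333 CPM in treated libraries, against 2.15, 1.99 and 3.50 CPM in controls (log2 10.62, SE 0.15, adjusted p = 3.86e-10). Gbp2 (ENSMUSG00000028270, chromosome 3, 142620602 to 142638008) had 3566, 3563 and 4334 CPM in treated libraries, against 10.4, 13.2 and 14.8 CPM in controls (log2 8.47, SE 0.16, adjusted p = 9.9e-10). Irgm1, a regulator of the other GTPases of its family, was already readable in untreated cells, with 2821, 2800 and 2990 CPM in treated libraries, against 36.8, 38.6 and 31.5 CPM in controls (log2 6.51, SE 0.11, adjusted p = 5.06e-10). In all 3 genes every treated library lay far above every control. Gbp5 had 0 control reads and was at least 160.2-fold higher when the control group is set at 3 counts, about the upper 95% limit of a count of 0. Irgq was called lower (log2 -0.34, adjusted p = 0.0257), a call lost by DESeq2 (adjusted p = 0.0936) and without any 1 of 5 libraries, the exception being IFNG 3 (0.0580 to 0.0766). Reads of close paralogs in these families (Gbp, Irgm and Tgtp genes) can be split or lost, so single members are uncertain.

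Promoters of induced genes are shown to set the ISRE and GAS letters beside the values above. Each is 300 bases, 250 before and 50 after the transcript start, 5′ to 3′ on the strand of the gene, from RefSeq on GRCm38.p6. They belong to the genes with the largest rises whose promoters hold a match, from different lists: Tgtp2 (chr11:49064163-49064462, minus strand), Apol9a (chr15:77411031-77411330, minus strand), Ifi203 (chr1:173942443-173942742, minus strand) and Psmb8 (chr17:34197945-34198244, plus strand). Capitals mark ISRE matches (GAAANNGAAA) and GAS matches (TTCNNNGAA), searched on both strands.
Tgtp2: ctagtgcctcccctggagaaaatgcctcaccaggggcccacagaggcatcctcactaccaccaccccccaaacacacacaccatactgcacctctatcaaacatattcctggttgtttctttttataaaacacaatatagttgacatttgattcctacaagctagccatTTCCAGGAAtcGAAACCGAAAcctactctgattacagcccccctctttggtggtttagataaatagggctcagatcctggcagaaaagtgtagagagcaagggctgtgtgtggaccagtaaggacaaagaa
Apol9a: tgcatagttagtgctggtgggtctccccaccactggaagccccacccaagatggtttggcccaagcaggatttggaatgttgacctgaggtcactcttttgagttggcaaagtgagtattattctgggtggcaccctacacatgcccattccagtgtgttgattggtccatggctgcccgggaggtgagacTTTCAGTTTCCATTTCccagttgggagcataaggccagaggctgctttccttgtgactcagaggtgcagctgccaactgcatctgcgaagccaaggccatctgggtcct
Ifi203: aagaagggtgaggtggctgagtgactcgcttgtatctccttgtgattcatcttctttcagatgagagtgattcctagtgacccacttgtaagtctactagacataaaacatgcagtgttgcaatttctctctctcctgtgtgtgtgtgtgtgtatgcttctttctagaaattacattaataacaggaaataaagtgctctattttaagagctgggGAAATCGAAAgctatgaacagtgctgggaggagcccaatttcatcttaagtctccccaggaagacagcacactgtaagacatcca
Psmb8: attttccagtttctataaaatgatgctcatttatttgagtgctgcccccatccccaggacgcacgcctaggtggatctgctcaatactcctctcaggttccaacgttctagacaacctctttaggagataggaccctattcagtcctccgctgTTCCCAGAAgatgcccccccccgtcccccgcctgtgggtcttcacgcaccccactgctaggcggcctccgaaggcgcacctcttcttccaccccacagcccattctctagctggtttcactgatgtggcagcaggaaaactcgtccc
In Tgtp2, an immunity-related GTPase, the GAS match started 81 bases before the transcript start and the ISRE match 70 bases before it, and the gene had 707, 688 and 808 CPM in treated libraries, against 0.254, 0.398 and 0.389 CPM in controls (log2 11.23, SE 0.18, adjusted p = 4.61e-10). In Apol9a, an apolipoprotein L gene shown by 1 of its 2 promoters, the ISRE matches began 59 and 53 bases before the start and overlap by 4 bases. Ifi203, a DNA-binding protein of the IFI200 family with 2 promoters as well, had its match 35 bases before the start. Psmb8, an immunoproteasome subunit, had a GAS match 97 bases before the start.

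Of all 32851 RefSeq promoters 3.44% held an ISRE match and 8.30% a GAS match. Of the gene lists 31 had a promoter for at least 80% of their tested genes, and the median share of their promoters with an ISRE match was 5.13%, with no match in 9 of them. The shares were highest in the IFI200 genes (5 of 6 promoters, 83.3%), the Schlafen genes (3 of 4, 75.0%) and the IFIT and IFITM genes (5 of 7, 71.4%). Other lists of the interferon response had lower shares, with 1 of 4 promoters of the ISG15 pathway (25.0%), 1 of 5 of the chemokines, 2 of 13 of the PARP genes (15.4%), 1 of 8 of the IRF genes (12.5%), 2 of 20 of the proteasome core and its activators (10.0%) and 1 of 15 of the receptor and JAK-STAT genes (6.67%). The GTPase list had promoters for 12 of its 21 tested genes, below that share, and so gets no share here. For the same reason no share was compared across sizes of change: 109 of the 159 genes with a log2 of at least 4 had a promoter. A match is a description of the letters in this window and says nothing about binding.

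Some of the induced genes stood next to one another. In the order of the 10749 tested protein-coding genes, 11 runs of at least 4 neighbours all rose with a log2 of at least 1, and they held 61 genes, 7.31% of the 835 protein-coding genes called higher at that size. The longest, with 10 genes on chromosome 11 from 48861968 to 49135387, ran from Irgm1 through both Tgtp genes to Ifi47 (log2 3.45 to 11.49). A run of 9 genes on chromosome 17 from 34119541 to 34316674 held H2-DMa, H2-DMb1, Psmb9, Tap1, Psmb8, Tap2, H2-Ab1, H2-Aa and H2-Eb1 (log2 6.69 to 11.28). Chromosome 7 from 104244457 to 104507849 held 6 TRIM genes, and chromosome 1 held Slamf8 with 5 IFI200 genes. Slamf8, a receptor of the SLAM family, had 0 control reads and was at least 50.3-fold higher. Another run on chromosome 1 held Sp110, Sp140 and Sp100, nuclear body proteins, with Sp100 at 31.7, 31.01 and 41.4 CPM with IFNG and 0.127, 0.797 and 0.777 CPM without it (log2 6.37, SE 0.35, adjusted p = 7.09e-07). The single run of falls, Rgs14, Grk6, Dbn1 and Pdlim7 on chromosome 13, lay between log2 -2.88 and -1.06. Neighbours in these runs are often paralogs of each other and 6 genes of the longest run overlap another coding gene, so the members of a run are not independent. Fitted log2 values of members with at most 3 control reads depend on the prior count of the fit.

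Genes of antigen presentation rose, those for peptide cutting, transport, loading and display among them. All 12 tested genes of class I and peptide loading were called higher (median 4.32). Nlrc5, the transactivator of class I genes (ENSMUSG00000074151, chromosome 8, 94434356 to 94527272), had 400.0, 398 and 326 CPM in treated libraries, against 1.52, 3.19 and 3.11 CPM in controls (log2 7.49, SE 0.22, adjusted p = 9.13e-09). H2-K1 had 1942, 1960 and 1369 CPM in treated libraries, against 49.95, 43.4 and 39.2 CPM in controls (log2 5.49, SE 0.18, adjusted p = 2.37e-08). The loading factor gene Tapbp had 906, 918 and 841 CPM with IFNG and 49.2, 52.6 and 55.95 CPM without it (log2 4.28, SE 0.10, adjusted p = 2.56e-09). For H2-K1 and H2-D1 the library IFNG 3 was the lowest of the treated ones, and for B2m, with 3374, 3130 and 4823 CPM in treated libraries, against 386, 382 and 424 CPM in controls, it was the highest, each still above all controls. The general ER chaperones of the list rose less: Canx by 0.66, Calr by 1.11 and Pdia3 by 1.13. H2 genes are close paralogs and can share reads.

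Nonclassical class Ib genes, which present to specialised T and NK cells, were called higher in all 6 tested cases out of 25 in the tables. H2-T23, the mouse counterpart of HLA-E, had 520.0, 536 and 375 CPM in treated libraries, against 1.14, 0.996 and 0.389 CPM in controls (log2 9.11, SE 0.26, adjusted p = 8.94e-09). H2-T22 had 412, 417 and 405 CPM in treated libraries, against 23.4, 20.5 and 20.6 CPM in controls, H2-Q4 averaged 119 ± 20.5 CPM in treated cells and 8.80 ± 2.01 CPM in untreated cells, and H2-M3 had 321 treated and 2 control reads, a ratio of 141 (95% interval 38.6 to 1167). Treated and control libraries did not overlap for any of the 6. Of 9 class II genes 6 were called higher, with H2-Aa at 391.5, 372 and 320.5 CPM with IFNG and 0.380, 0.797 and 0.777 CPM without it (log2 9.41, SE 0.21, adjusted p = 2.56e-09). H2-DMa, part of the peptide exchange factor, had 172, 188 and 148 CPM with IFNG and 0.761, 0.398 and 1.17 CPM without it. The 3 that were not called were the RFX factors of the class II promoter complex, Rfx5 (log2 0.50, adjusted p = 0.055, or called without IFNG 3 or control 2 at 0.00201 and 0.0248), Rfxap (adjusted p = 0.998) and Rfxank (log2 -0.15, adjusted p = 0.53).

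Proteasome genes rose more often than they fell in the core and in the cap. Of 21 tested genes of the 20S core and its activators 16 were called higher. The inducible subunit gene Psmb10 had 684, 722 and 495 CPM in treated libraries, against 20.9, 21.3 and 16.3 CPM in controls (log2 5.18, SE 0.18, adjusted p = 4e-08). Psmb9 had 5838 treated reads and 2 control reads, a ratio of 2559 (95% interval 708 to 21140). The PA28 activator genes Psme1 and Psme2 rose by 3.31 and 3.66. Among constitutive subunits Psma5 rose by 1.55, and Psmb5 and Psmb6, whose places the inducible subunits take, had log2 values of 0.02 and 0.02 (adjusted p = 0.948 and 0.895, and below 0 with library totals). In the 19S cap 11 of 21 genes were called higher and 1 lower, with a median of 0.31. That count was 17 without IFNG 3, 6 without control 2 and 5 with library totals. Psmd1 was the largest rise of the cap (log2 0.71, SE 0.10, adjusted p = 0.000343), and the call of Psmd8 (log2 -0.25, adjusted p = 0.0439), the member called lower, was lost without IFNG 1, IFNG 2, control 1 or control 2 (adjusted p of 0.0685 to 0.125) and by DESeq2 (0.101).

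Genes of 5 families of antiviral effectors rose, though not every member. In the ISG15 pathway, a ubiquitin-like tagging system, all 5 genes were called higher, with Isg15 at 182, 184 and 158 CPM with IFNG and 6.21, 6.57 and 7.38 CPM without it (log2 4.92, SE 0.14, adjusted p = 6.5e-09). Its activating enzyme gene Uba7 had 214, 202 and 161 CPM with IFNG and 4.69, 3.98 and 6.22 CPM without it (log2 5.52, SE 0.19, adjusted p = 2.97e-08). Of the 8 tested genes of the OAS list 7 were called higher. Oasl2 had 304, 285 and 312 CPM in treated libraries, against 0.254, 0.598 and 1.55 CPM in controls (log2 9.13, SE 0.25, adjusted p = 6.5e-09). Oas3 had 0 control reads and was at least 25.7-fold higher. Of 6 IFIT and IFITM genes 5 were called higher, led by Ifit3 with 377, 376 and 372 CPM with IFNG and 4.31, 4.18 and 3.50 CPM without it (log2 6.69, SE 0.12, adjusted p = 7.43e-10). Ifitm2 was not called (log2 -0.19, adjusted p = 0.412). All 5 tested IFI200 genes, of 13 listed, were called higher, with Ifi204 at least 185-fold higher against that bound and Ifi211 at a ratio of 374 (95% interval 66.7 to 14790). So were all 4 tested APOL genes, of 12 listed, among them Apol10b at a ratio of 445 (95% interval 79.6 to 17630). All 5 of these IFI200 genes and 3 of these APOL genes had at most 3 control reads. They were tested only through their treated reads, so the filter favoured rises and these counts are no separate support. Oas1, Ifit3, IFI200 and Apol9 genes have near-identical copies and their single values are uncertain.

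The PARP genes, for enzymes that attach ADP-ribose, mostly rose. Of 15 tested genes 11 were called higher and 2 lower (median 1.24). Parp14 had 469, 472 and 484 CPM in treated libraries, against 7.86, 9.76 and 10.1 CPM in controls (log2 5.91, SE 0.12, adjusted p = 1.39e-09). Parp9 and its partner gene Dtx3l rose by 5.16 and 5.10. Parp12, Parp10, Parp11 and Parp3 rose by 3.68, 3.22, 2.62 and 1.70. Parp2, a DNA repair enzyme, was not called (log2 -0.17, adjusted p = 0.354), and the fall of Parp1, another (log2 -0.36, adjusted p = 0.0242), did not pass the test without control 1 (adjusted p = 0.0659) or control 2 (0.0592). Parp16, an enzyme of the ER membrane, fell, with 12.2, 11.9 and 13.7 CPM in treated libraries, against 29.2, 31.9 and 29.5 CPM in controls (log2 -1.06, SE 0.13, adjusted p = 0.000172).

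TRIM genes, which encode ubiquitin ligases, moved both ways, 11 called higher and 16 lower of 39 tested, with a median of -0.30. The share called higher was near the 22.1% of all tested genes, and the share called lower was above their 22.0%. The 6 genes of the chromosome 7 run rose by 4.97 to 6.46, and Trim30d among them had 215 treated and 2 control reads, a ratio of 94.3 (95% interval 25.8 to 783). Trim21, an antibody receptor of the cytosol, had 87.7, 96.2 and 104 CPM in treated libraries, against 7.48, 9.36 and 6.99 CPM in controls (log2 3.77, SE 0.14, adjusted p = 5.59e-08). Trim25, an activator of RIG-I, had 139, 130.4 and 126 CPM with IFNG and 28.6, 31.3 and 27.97 CPM without it (log2 2.35, SE 0.11, adjusted p = 1.68e-07). Trim28, a corepressor at retroelements, fell, with 339.9, 347 and 275 CPM in treated libraries, against 568, 512 and 505 CPM in controls (log2 -0.53, SE 0.11, adjusted p = 0.00393). Trim46, which organises axonal microtubules, fell by more (log2 -2.94, SE 0.32, adjusted p = 8.06e-05). Of 3 Schlafen genes Slfn9 rose (log2 1.27, adjusted p = 3.85e-05) and Slfn3 fell (log2 -0.77, adjusted p = 0.00416), while Slfn8 had 207 treated and 1 control reads, a ratio of 182 (95% interval 32.2 to 7203).

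Sensors of nucleic acids and of bacterial products rose in 12 of 16 cases. Dhx58, Ifih1 and Ddx58, the RIG-I-like RNA helicases, rose by 5.51, 4.55 and 3.26, the last with 198, 188 and 234 CPM in treated libraries, against 23.6, 23.7 and 27.2 CPM in controls. Nod1, a sensor of bacterial peptidoglycan, had 98.9, 91.03 and 82.8 CPM in treated libraries, against 0.507, 0.398 and 0.777 CPM in controls (log2 7.58, SE 0.22, adjusted p = 6.84e-09). Its control libraries held a few reads each. Tlr3, the endosomal receptor for double-stranded RNA, had 68.8, 66.2 and 109 CPM in treated libraries, against 12.3, 10.8 and 13.99 CPM in controls (log2 2.93, SE 0.22, adjusted p = 6.25e-06), with IFNG 3 the highest. Tlr4 was the member called lower (log2 -0.69, adjusted p = 0.0329), and that call was lost without any 1 library (adjusted p of 0.0852 to 0.0996) except IFNG 3.

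Genes of inflammatory cell death mostly rose. Of 11 genes of necroptosis and pyroptosis 7 were called higher and 1 lower, or 2 lower without IFNG 2 or IFNG 3. Mlkl, the executioner of necroptosis, had 300.0, 302 and 334 CPM in treated libraries, against 57.8, 61.5 and 55.2 CPM in controls (log2 2.61, SE 0.10, adjusted p = 4.41e-08). Ripk1 rose by 0.86. Gsdmd, the pore-forming gasdermin D, had 36.1, 46.7 and 41.1 CPM in treated libraries, against 3.04, 2.79 and 2.33 CPM in controls (log2 4.05, SE 0.19, adjusted p = 1.96e-07). Gsdmc, another gasdermin, moved the other way, with 25.9, 21.5 and 27.6 CPM in treated libraries, against 220.2, 222 and 227 CPM in controls (log2 -2.96, SE 0.11, adjusted p = 5.55e-08). Gsdme was not called (log2 0.01, adjusted p = 0.972). Among 8 caspases 3 were called higher (and 1 lower with library totals, 2 without IFNG 3), among them Casp8 (log2 0.52, adjusted p = 0.00182) and Casp12, which had 156 treated and 1 control reads, a ratio of 137 (95% interval 24.2 to 5437).

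In the BCL2 family 4 genes were called higher and 2 lower of 13, but 3 higher and 5 lower with library totals. At TMM scale the share called in either direction was near the 44.1% of all tested genes. The pore former gene Bak1 rose, with 123.1, 123.2 and 102 CPM in treated libraries, against 65.3, 56.2 and 48.2 CPM in controls (log2 1.21, SE 0.14, adjusted p = 0.000101). Bax fell, with 72.7, 81.5 and 59.04 CPM in treated libraries, against 144, 132 and 122.8 CPM in controls (log2 -0.72, SE 0.13, adjusted p = 0.00205). Bbc3, the p53 target PUMA, fell (log2 -2.58, SE 0.26, adjusted p = 5.06e-05). Mcl1, a survival factor, rose by 0.69, and Bcl2 and Bcl2l1 were not called (log2 -0.16, adjusted p = 0.39 and log2 -0.08, adjusted p = 0.58). The call of Bcl2l11 (log2 0.54, adjusted p = 0.0455) was lost by DESeq2 (adjusted p = 0.0568), with library totals (0.159) and without IFNG 1, control 1 or control 3 (0.136, 0.210 and 0.133).

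A few secreted signals and receptors rose, and most chemokine genes were too scarce to test. Of 38 chemokine genes 5 were tested and 4 called higher, among them Ccl5 with 10.9, 10.7 and 7.38 CPM with IFNG and 3.93, 4.38 and 2.33 CPM without it (log2 1.54, SE 0.26, adjusted p = 0.00121) and Cxcl9, which had 115 treated and 1 control reads, a ratio of 101 (95% interval 17.7 to 4017). The call of Cx3cl1 (log2 1.27, adjusted p = 0.0212) was lost without IFNG 1, IFNG 2, control 1 or control 3 (adjusted p of 0.0535 to 0.106). Of 16 interleukin and receptor genes 10 were called higher and 1 lower (10 and 3 with library totals). Il18bp, a secreted decoy for interleukin-18, had 163, 161 and 165 CPM in treated libraries, against 0.887, 1.79 and 1.94 CPM in controls (log2 7.06, SE 0.19, adjusted p = 6.5e-09). Il18 itself had 11.4, 9.74 and 14.8 CPM in treated libraries, against 3.04, 3.39 and 5.05 CPM in controls (log2 1.94, SE 0.25, adjusted p = 0.000234). Il12rb1, a receptor chain for interleukin-12, had 136, 129 and 82.8 CPM in treated libraries, against 2.28, 2.19 and 0.777 CPM in controls (log2 6.05, SE 0.30, adjusted p = 3.8e-07). Osmr and Lifr, receptors of interleukin-6 family cytokines, rose by 2.43 and 2.50, and Csf1, the macrophage growth factor, had 83.2, 106 and 79.8 CPM in treated libraries, against 28.5, 30.3 and 26.4 CPM in controls (log2 1.84, SE 0.14, adjusted p = 7.1e-06). Il12rb1 had its lowest treated value in IFNG 3. In these 6 genes the groups did not overlap.

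Ligands and receptors that T and NK cells read moved unequally. Cd274, the ligand PD-L1, had 188, 173 and 183 CPM with IFNG and 6.46, 7.57 and 6.61 CPM without it. Cd47, a signal against phagocytosis, had 82.8, 77.9 and 119.7 CPM in treated libraries, against 30.9, 29.1 and 32.2 CPM in controls (log2 1.80, SE 0.17, adjusted p = 3.07e-05). Lgals9, a galectin, had 161, 158 and 142 CPM with IFNG and 57.2, 65.7 and 49.3 CPM without it (log2 1.60, SE 0.12, adjusted p = 7.6e-06). Nectin2, a ligand of DNAM-1 and TIGIT, fell, with 15.4, 15.1 and 10.1 CPM in treated libraries, against 45.5, 40.4 and 45.5 CPM in controls (log2 -1.51, SE 0.17, adjusted p = 0.000116), while Pvr, which binds the same receptors, rose (log2 0.65, SE 0.15, adjusted p = 0.00662). The NKG2D ligand genes Raet1e, Raet1d and Ulbp1 overlapped between groups and were not called (adjusted p = 0.299, 0.359 and 0.432). Of 11 genes of the TNF superfamily 4 were called higher and 1 lower (4 and 3 with library totals), with Tnfsf10, the death ligand TRAIL, at 252 treated and 0 control reads and so at least 73.7-fold higher. Tnfrsf14, the receptor HVEM, had 20.04, 23.6 and 18.2 CPM in treated libraries, against 0.634, 0.797 and 1.94 CPM in controls (log2 4.64, SE 0.30, adjusted p = 2.27e-06). Tnfrsf10b, the receptor for TRAIL, was not called (log2 -0.09, adjusted p = 0.716). Serpinb9, an inhibitor of granzyme B, had 65.3, 62.01 and 99.7 CPM in treated libraries, against 6.59, 7.97 and 13.2 CPM in controls (log2 3.34, SE 0.27, adjusted p = 9.47e-06). Complement genes were called higher in 5 of 7 cases, with C1ra at 95.7, 91.4 and 87.96 CPM with IFNG and 10.4, 6.37 and 8.94 CPM without it (log2 3.58, SE 0.17, adjusted p = 2.32e-07). C2 had 141, 143 and 142 CPM with IFNG and 32.1, 29.7 and 24.9 CPM without it (log2 2.46, SE 0.12, adjusted p = 2.05e-07).

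Factors and inhibitors of NF-kB fell more often than they rose, 7 lower and 3 higher of 18 (5 higher without IFNG 3). Nfkb2, a precursor subunit of the noncanonical pathway, had 38.2, 40.4 and 28.2 CPM in treated libraries, against 136, 112 and 109 CPM in controls (log2 -1.56, SE 0.16, adjusted p = 4.88e-05). Its partner gene Relb had 7.68, 5.37 and 4.07 CPM with IFNG and 51.5, 51.6 and 42.4 CPM without it (log2 -2.91, SE 0.21, adjusted p = 5.14e-06). The inhibitor genes Nfkbia and Nfkbie fell by 1.43 and 1.59 on the log2 scale, and Nfkb1 and Rela by 0.74 and 0.76. Rel, the c-Rel subunit, rose (log2 1.01, SE 0.16, adjusted p = 0.000892). Among AP-1, BATF and MAF factors 6 were called higher and 3 lower of 13: Batf2 had 212, 216 and 159.9 CPM with IFNG and 0.380, 0.199 and 0.389 CPM without it (log2 9.33, SE 0.27, adjusted p = 8.94e-09), Fos rose by 1.09 and Atf3 by 0.87, while Jund (log2 -1.22, SE 0.17, adjusted p = 0.000396) and Mafg (log2 -0.81, SE 0.10, adjusted p = 0.000129) fell.

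**Figure D4:**
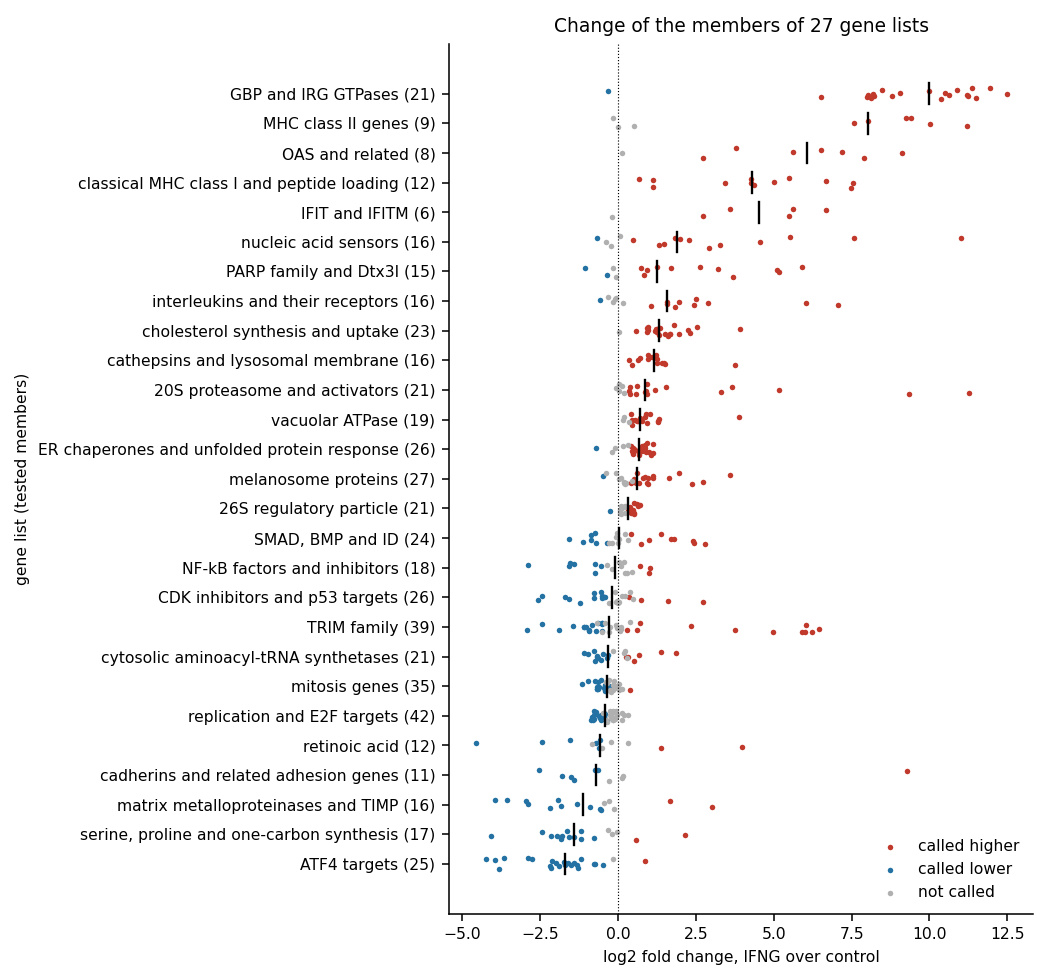
Log2 fold change of IFNG-treated over control cells for each tested member of 27 gene lists (number tested in brackets), with members called higher in red, lower in blue and not called in grey. The black bar is the median of the list and the dotted line the median of all tested genes (-0.01), and medians run from 10.00 for the GBP and IRG GTPases to -1.72 for the ATF4 targets.

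Genes of the amino acid response fell together. ATF4 is the factor that cells switch on when amino acids run short or proteins misfold, and it drives amino acid uptake and synthesis. Of 25 tested genes of its target list 23 were called lower and 1 higher, with a median log2 of -1.72 against -0.01 over all tested genes. Atf4 itself (ENSMUSG00000042406, chromosome 15, 80255184 to 80257541) had 278, 299 and 256 CPM in treated libraries, against 987, 967 and 938 CPM in controls (log2 -1.60, SE 0.09, adjusted p = 7.08e-07). Slc7a11, the cystine transporter, had 3.34, 4.77 and 6.33 CPM in treated libraries, against 63.4, 84.8 and 90.5 CPM in controls (log2 -3.83, SE 0.23, adjusted p = 1.24e-06). In both genes every treated library lay below every control. Atf5, a related factor, had 22.9, 23.3 and 14.01 CPM in treated libraries, against 318, 279.6 and 274 CPM in controls (log2 -3.68, SE 0.18, adjusted p = 3.8e-07). Chac1, which degrades glutathione, had 16.2, 16.1 and 10.7 CPM with IFNG and 122.8, 125 and 115 CPM without it (log2 -2.90, SE 0.16, adjusted p = 7.86e-07). In Atf5 and Chac1, too, no treated library reached a control. Slc7a5, the large neutral amino acid transporter, fell less (log2 -0.77, SE 0.10, adjusted p = 0.000255), and its partner gene Slc3a2 was not called (log2 -0.17, adjusted p = 0.169). The exception was Atf3, which rose, with 30.1, 32.6 and 28.2 CPM with IFNG and 16.7, 19.1 and 21.8 CPM without it (log2 0.87, SE 0.14, adjusted p = 0.00092).

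Genes for the synthesis of serine, glycine, proline and folate units mostly fell. Of 17 genes 12 were called lower and 2 higher (median -1.43). Phgdh, the first enzyme of serine synthesis, had 77, 79.3 and 53.02 CPM in treated libraries, against 475, 423 and 391 CPM in controls (log2 -2.44, SE 0.16, adjusted p = 2.62e-06). Psat1, the next enzyme, had 129, 134 and 154 CPM with IFNG and 504, 485 and 482 CPM without it (log2 -1.63, SE 0.09, adjusted p = 8.69e-07). Mthfd2, an enzyme of the mitochondrial folate cycle, had 128, 122 and 130.1 CPM in treated libraries, against 507, 509.5 and 507 CPM in controls (log2 -1.81, SE 0.08, adjusted p = 1.57e-07). Pycr1, which makes proline, had 1.84, 3.78 and 2.41 CPM in treated libraries, against 51.98, 49.8 and 50.9 CPM in controls (log2 -4.08, SE 0.20, adjusted p = 3.78e-07). In these 4 genes the groups did not overlap. Aldh1l1, which removes formyl-folate, moved the other way, with 90.7, 98.8 and 77.1 CPM in treated libraries, against 21.8, 23.5 and 24.5 CPM in controls (log2 2.13, SE 0.13, adjusted p = 1.75e-06). Genes of the list took 0.153% to 0.171% of the counts of the treated libraries and 0.419% to 0.447% of the counts of the controls. Asns stands both in this list and in that of the ATF4 targets, so the lists are not fully independent.

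Cytosolic aminoacyl-tRNA synthetases divided, 11 lower and 6 higher of 21 (12 and 4 with library totals). Sars, the enzyme for serine, had 371, 386 and 334 CPM in treated libraries, against 982, 874 and 835 CPM in controls (log2 -1.11, SE 0.10, adjusted p = 2.01e-05). Aars, for alanine, had 565, 599.7 and 487 CPM with IFNG and 1016, 984 and 942 CPM without it (log2 -0.64, SE 0.10, adjusted p = 0.000644). Kars, for lysine, rose, with 476, 480.2 and 447 CPM in treated libraries, against 224, 205 and 190.4 CPM in controls (log2 1.37, SE 0.09, adjusted p = 3.01e-06), as did Wars, for tryptophan (log2 1.87, SE 0.09, adjusted p = 1.68e-07).

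Promoters of 3 of the falling genes, chosen after their values were seen, are shown with the letters that ATF4 dimers are known to bind (CARE, TGATGNAA, both strands) in capitals. They are of the same kind as those above: Trib3 (chr2:152344011-152344310, minus strand), Slc7a11 (chr3:50443564-50443863, minus strand) and Asns (chr6:7693160-7693459, minus strand).
Trib3: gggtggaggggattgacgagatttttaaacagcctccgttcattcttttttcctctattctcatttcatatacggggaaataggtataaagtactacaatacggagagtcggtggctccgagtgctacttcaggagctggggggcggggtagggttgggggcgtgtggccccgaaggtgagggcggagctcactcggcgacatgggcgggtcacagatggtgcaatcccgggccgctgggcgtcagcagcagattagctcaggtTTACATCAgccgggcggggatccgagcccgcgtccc
Slc7a11: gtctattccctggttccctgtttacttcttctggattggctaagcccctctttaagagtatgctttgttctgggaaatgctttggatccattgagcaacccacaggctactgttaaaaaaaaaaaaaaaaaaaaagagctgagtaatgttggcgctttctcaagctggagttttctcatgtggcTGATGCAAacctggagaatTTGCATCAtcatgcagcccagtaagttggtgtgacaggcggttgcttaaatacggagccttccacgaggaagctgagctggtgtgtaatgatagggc
Asns: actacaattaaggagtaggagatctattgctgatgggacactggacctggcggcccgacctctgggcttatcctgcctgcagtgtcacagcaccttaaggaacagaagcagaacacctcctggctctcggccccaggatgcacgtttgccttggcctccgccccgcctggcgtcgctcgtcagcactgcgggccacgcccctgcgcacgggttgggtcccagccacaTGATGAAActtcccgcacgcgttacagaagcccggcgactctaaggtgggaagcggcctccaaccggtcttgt
The match of Asns began 23 bases before the transcript start, those of Slc7a11 66 and 47 bases before it, and that of Trib3 14 bases after it. Over all promoters 3.97% held such a match. In the ATF4 target list, with promoters for 21 of 25 tested genes, 9 of 26 promoters held one (34.6%), and in the serine and folate list, with 14 of 17, 3 of 15 did. The motif was used neither in choosing the lists nor in the test, but both lists name genes long known as ATF4 targets.

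Folding in the ER went the other way from the amino acid response. Of 26 chaperone and unfolded protein response genes 21 were called higher and 1 lower (17 and 3 with library totals, 2 lower without IFNG 3), with a median of 0.67. Hspa5, the main chaperone BiP, had 1614, 1590 and 1654 CPM in treated libraries, against 989, 1043 and 1048 CPM in controls (log2 0.85, SE 0.07, adjusted p = 1.56e-05). Hsp90b1 had 796, 777 and 898 CPM in treated libraries, against 431, 467 and 525 CPM in controls (log2 0.99, SE 0.10, adjusted p = 4.34e-05). P4hb, a disulfide isomerase, had 1746, 1723 and 1746 CPM with IFNG and 1164, 1067 and 1112 CPM without it (log2 0.83, SE 0.08, adjusted p = 2.18e-05). Their groups did not overlap. Eif2ak3, the kinase PERK that acts upstream of ATF4, was the member called lower, with 50.9, 49.5 and 46.1 CPM in treated libraries, against 95.1, 92.6 and 85.5 CPM in controls (log2 -0.71, SE 0.10, adjusted p = 0.000446). Xbp1, a factor of the unfolded protein response, was not called (log2 -0.10, adjusted p = 0.419). With library totals it was called lower (adjusted p = 0.0232) and 3 members in all were, as against 2 without IFNG 3.

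**Figure D5:**
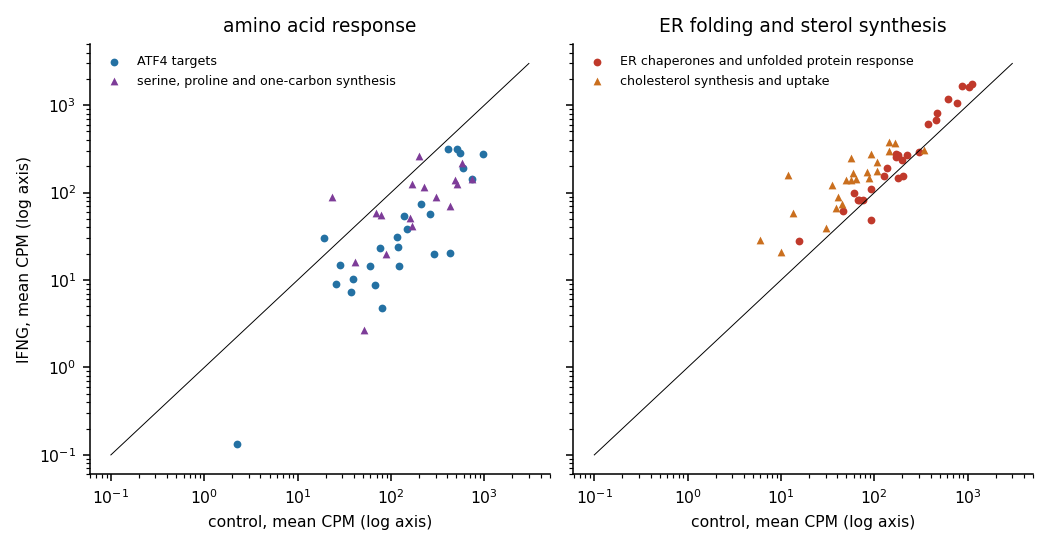
Mean CPM in IFNG-treated cells (y axis) against mean CPM in control cells (x axis), both on log axes, for the tested members of 4 gene lists, with a line at equal levels. Members of the ATF4 target and serine lists lie mostly below the line (23 of 25 and 12 of 17 called lower), and members of the ER chaperone and cholesterol lists mostly above it (21 of 26 and 22 of 23 called higher).

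Genes of sterol synthesis mostly rose. Of 23 cholesterol genes 22 were called higher (median 1.33). Hmgcs1, an early enzyme of the pathway, had 205, 212 and 323 CPM in treated libraries, against 50.8, 58.8 and 60.6 CPM in controls (log2 2.32, SE 0.18, adjusted p = 7.96e-06). Its treated libraries spread widely, with IFNG 3 the highest, and all lay above the controls. Efflux and LXR genes did not follow, with 2 higher and 2 lower of 9 (4 higher without IFNG 3, 1 without control 1 or control 2, and 1 higher and 3 lower with library totals): Npc2, a lysosomal sterol carrier, rose (log2 0.90, SE 0.09, adjusted p = 4.33e-05). Mylip, a ubiquitin ligase, fell (log2 -1.14, SE 0.12, adjusted p = 5.16e-05). The shares called in the efflux list were near those of all tested genes, 22.1% higher and 22.0% lower. Among 20 fatty acid genes 13 were called higher and 4 lower. Acacb rose, with 66.6, 65.6 and 48.5 CPM in treated libraries, against 17.4, 14.1 and 13.99 CPM in controls (log2 2.15, SE 0.17, adjusted p = 9.8e-06), as did Acaca (log2 1.08, SE 0.09, adjusted p = 1.45e-05), both acetyl-CoA carboxylases. Scd2, a desaturase, fell, with 1380, 1364 and 1596 CPM in treated libraries, against 2628, 2610 and 2670 CPM in controls (log2 -0.67, SE 0.08, adjusted p = 0.000167), and so did Srebf1, the lipogenic regulator (log2 -0.96, SE 0.19, adjusted p = 0.00279).

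Genes of lysosomes and melanosomes, related organelles, rose more often than they fell. All 16 tested cathepsin and lysosomal membrane genes were called higher (median 1.15), and they took 0.837% to 0.863% of the counts of the treated libraries and 0.502% to 0.520% of the counts of the controls. Ctsb, a cysteine protease, had 1571, 1508 and 1340 CPM in treated libraries, against 767, 765 and 788 CPM in controls (log2 1.12, SE 0.09, adjusted p = 7.66e-06). Ctsd, an aspartic protease, had 1497, 1498 and 1216 CPM with IFNG and 876, 830.2 and 766 CPM without it (log2 0.96, SE 0.11, adjusted p = 9.16e-05). Ctss, the protease that trims the class II invariant chain, reached 4.88 ± 0.740 CPM in treated cells and 0.476 ± 0.270 CPM in untreated cells (log2 3.76, SE 0.39, adjusted p = 5e-05). Of 19 subunits of the proton pump that acidifies these organelles 16 were called higher. Atp6v1b2 had 707, 689 and 746 CPM in treated libraries, against 335, 344 and 332 CPM in controls (log2 1.27, SE 0.08, adjusted p = 1.39e-06), with all treated libraries above all controls.

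Melanosome genes were called higher in 17 of 27 cases (median 0.60) and took 4.87% to 5.22% of the counts of the treated libraries and 3.82% to 3.85% of the counts of the controls. Slc24a4, an ion exchanger, had 97.04, 88.5 and 80.6 CPM in treated libraries, against 7.10, 8.56 and 10.9 CPM in controls (log2 3.58, SE 0.16, adjusted p = 2.08e-07). Oca2, a melanosomal channel, had 231, 238 and 251 CPM with IFNG and 52.6, 56.6 and 47.4 CPM without it (log2 2.38, SE 0.10, adjusted p = 1.14e-07). Myo5a, the motor that moves melanosomes, had 1741, 1768 and 2040 CPM in treated libraries, against 625, 712 and 694 CPM in controls (log2 1.64, SE 0.09, adjusted p = 9.28e-07). All treated libraries of these 3 genes lay above the controls. Tyr, the rate-limiting enzyme of melanin synthesis, fell, with 276, 261 and 373 CPM in treated libraries, against 484, 488 and 495 CPM in controls (log2 -0.50, SE 0.13, adjusted p = 0.0109). Dct, which acts after it, had 9105, 8953 and 8274 CPM in treated libraries, against 9314, 9580 and 9599 CPM in controls, and was not called (log2 0.08, adjusted p = 0.428). Its log2 was -0.11 with library totals, not called (adjusted p = 0.212), and 0.13 without IFNG 3, called higher (0.0332). The regulators of the lineage did not share one direction, 5 higher and 5 lower of 17 (3 and 7 with library totals). The count higher was 3 without control 1, and the count lower 3 without control 2. Met, the receptor for hepatocyte growth factor, had 926, 909 and 1162 CPM in treated libraries, against 362, 379 and 382 CPM in controls (log2 1.61, SE 0.11, adjusted p = 2.55e-06). Erbb3, the neuregulin receptor, had 55.3, 58.04 and 58.6 CPM with IFNG and 236, 220.3 and 218 CPM without it (log2 -1.78, SE 0.09, adjusted p = 4.19e-07). Mitf had 600.1, 608 and 877 CPM in treated libraries, against 512, 542 and 555 CPM in controls, with IFNG 3 apart from the other treated libraries, and its call (log2 0.57, adjusted p = 0.00906) was lost without control 1 (adjusted p = 0.0577) and with library totals (0.0526). Sox10, which also had IFNG 3 apart, had 743, 719 and 431 CPM in treated libraries, against 1021, 967 and 890.1 CPM in controls (log2 -0.41, adjusted p = 0.0975). Without IFNG 3, its lowest library, Sox10 was called lower with a smaller change (log2 -0.195, adjusted p = 0.00907). Rab GTPases, which steer vesicles, moved both ways (13 higher and 8 lower of 46, or 10 and 13 with library totals), with Rab5b, of early endosomes, at 155, 147 and 176 CPM with IFNG and 76.4, 70.3 and 64.9 CPM without it (log2 1.36, SE 0.11, adjusted p = 9.95e-06). The share of Rab genes called in either direction was near the 44.1% of all tested genes.

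Adhesion and matrix genes fell more than they rose. Of 11 cadherins and related genes 7 were called lower and 1 higher. Mcam, a melanoma adhesion molecule, had 71.2, 66.2 and 54.1 CPM in treated libraries, against 412, 428 and 444 CPM in controls (log2 -2.55, SE 0.12, adjusted p = 2.29e-07). Alcam had 9.86, 8.75 and 11.2 CPM with IFNG and 27.4, 29.3 and 35.7 CPM without it (log2 -1.41, SE 0.16, adjusted p = 0.000102). Cdh2, N-cadherin, fell by less (log2 -0.64, SE 0.10, adjusted p = 0.000695). Cdh6, a cadherin of the kidney and neural crest, was the member called higher: it had 12.7, 11.3 and 15.5 CPM in treated libraries, against 0, 0 and 0 CPM in controls, with 236 treated and 0 control reads in all, and so was at least 68.98-fold higher. Ncam1 fell (log2 -0.73, adjusted p = 0.0147), and the call of Cdh13 (log2 -0.71, adjusted p = 0.0421) was lost by DESeq2 (adjusted p = 0.228) and without IFNG 1, IFNG 3 or any 1 control (0.0566 to 0.140).

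Integrins and laminins moved by subunit, 7 lower and 6 higher of 20 (8 and 4 with library totals). Itga4, the alpha chain of VLA-4 (ENSMUSG00000027009, chromosome 2, 79255426 to 79333123), had 15.9, 14.9 and 21.8 CPM in treated libraries, against 184, 216 and 248 CPM in controls (log2 -3.41, SE 0.17, adjusted p = 3.63e-07). Itgb5 had 21.2, 28.2 and 21.99 CPM in treated libraries, against 114, 109.9 and 95.6 CPM in controls (log2 -1.98, SE 0.14, adjusted p = 4.07e-06). Itgav, its partner, rose, with 195, 196 and 258 CPM in treated libraries, against 103, 102 and 122 CPM in controls (log2 1.19, SE 0.13, adjusted p = 9.19e-05), as did Itgb3, another partner of Itgav (log2 1.18, SE 0.13, adjusted p = 6.34e-05). Lama5 and Lamc1, laminin chains of basement membranes, fell by 1.52 and 0.85 on the log2 scale.

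Of 16 metalloproteinase, ADAMTS and TIMP genes 11 were called lower and 2 higher (1 without control 1; median -1.12). Timp2, an inhibitor of these proteases, had 56.3, 73.9 and 56.2 CPM in treated libraries, against 339, 320.5 and 313 CPM in controls (log2 -2.20, SE 0.13, adjusted p = 9.81e-07). Adamts1 had 62.8, 60.03 and 52.3 CPM in treated libraries, against 240.0, 254 and 264 CPM in controls (log2 -1.92, SE 0.11, adjusted p = 7.08e-07). Mmp15, a membrane-bound protease, had 3.34, 1.19 and 2.41 CPM with IFNG and 34.6, 30.1 and 32.2 CPM without it (log2 -3.57, SE 0.25, adjusted p = 3.52e-06). Of 20 collagen genes 9 were called lower and 4 higher, with Col4a1, of basement membranes, at 9.52, 10.1 and 6.93 CPM with IFNG and 48.05, 42.03 and 54.4 CPM without it (log2 -2.25, SE 0.18, adjusted p = 8.99e-06). Col16a1 was called higher (log2 1.01, adjusted p = 0.00904) although its libraries overlapped, at 122, 132 and 61.3 CPM with IFNG and 58.95, 57.2 and 62.2 CPM without it. The library IFNG 2 stood apart in fibrillar collagens: Col1a1 had 1.84, 24.4 and 3.31 CPM in treated libraries, against 2.03, 3.19 and 2.33 CPM in controls (log2 2.10, adjusted p = 0.0907). Col1a2 had 2.17, 25.8 and 2.86 CPM with IFNG and 3.93, 6.57 and 5.44 CPM without it (log2 1.11, adjusted p = 0.311). The 7 fibroblast markers summed to 6.35, 60.03 and 8.89 CPM in IFNG 1, 2 and 3, against 10.4 to 16.7 CPM in the controls, and their part in these values was not tested.

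Guidance cues and developmental signals changed member by member. Semaphorins, plexins and ephrins had 11 called higher and 12 lower of 33. Sema3c had 1.17, 0.994 and 1.05 CPM in treated libraries, against 15.2, 17.7 and 17.9 CPM in controls (log2 -3.75, SE 0.22, adjusted p = 1.2e-06). Sema3g had 43.9, 41.1 and 31.5 CPM with IFNG and 4.69, 5.97 and 5.05 CPM without it (log2 3.08, SE 0.20, adjusted p = 2.17e-06). Plxnd1, a plexin that serves as a semaphorin receptor, had 1673, 1609 and 1084 CPM in treated libraries, against 766, 726 and 716 CPM in controls (log2 1.18, SE 0.15, adjusted p = 0.000246). In the Wnt list 5 were called higher and 7 lower of 18, and the number higher was 3 without control 1, without control 2 or with library totals, which gave 8 lower. Tcf7, a transcription factor of the pathway, had 42.4, 40.8 and 37.5 CPM in treated libraries, against 3.55, 3.58 and 2.72 CPM in controls (log2 3.75, SE 0.17, adjusted p = 1.44e-07). Tcf7l1, a repressor of the same family, had 6.18, 6.96 and 6.33 CPM with IFNG and 26.6, 28.5 and 24.5 CPM without it (log2 -1.85, SE 0.15, adjusted p = 9.47e-06). Dkk3, a secreted protein of the Dickkopf family, had 124, 133 and 113 CPM in treated libraries, against 24.2, 26.1 and 26.03 CPM in controls (log2 2.48, SE 0.11, adjusted p = 1.84e-07). The groups did not overlap in these genes.

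In the SMAD, BMP and ID list 9 genes were called higher and 7 lower of 24, or 8 and 9 with library totals, with a median of 0.02. Id2, an inhibitor of differentiation factors, had 716, 706 and 933 CPM in treated libraries, against 159.6, 178 and 171 CPM in controls (log2 2.40, SE 0.12, adjusted p = 4.13e-07). Id1 and Id3 rose by 1.79 and 0.99. Smad6 had 50.4, 40.5 and 31.3 CPM in treated libraries, against 8.87, 7.17 and 9.71 CPM in controls (log2 2.45, SE 0.22, adjusted p = 1.96e-05). Smad7 had 30.1, 25.8 and 25.3 CPM with IFNG and 8.87, 9.96 and 10.1 CPM without it (log2 1.70, SE 0.15, adjusted p = 1.83e-05). The ligand gene Tgfb1 fell (log2 -0.88, SE 0.20, adjusted p = 0.00589). In the retinoic acid list 6 of 12 were called lower and 2 higher: Crabp2, a binding protein, had 11.2, 9.34 and 9.79 CPM with IFNG and 0.634, 0.598 and 1.17 CPM without it (log2 3.97, SE 0.29, adjusted p = 4.36e-06). Cyp26b1 fell most, with 0.835, 0.199 and 0.452 CPM with IFNG and 13.8, 13.15 and 17.1 CPM without it (log2 -4.58, SE 0.33, adjusted p = 5.01e-06). The receptor gene Rarg fell by less (log2 -0.72, adjusted p = 0.00699).

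Replication and mitosis genes fell more often than they rose. Of 42 replication genes 22 were called lower (median -0.44), and 1 was called higher without IFNG 3. Gins2, part of the replicative helicase, had 17.7, 14.7 and 12.8 CPM in treated libraries, against 36.3, 29.3 and 27.6 CPM in controls (log2 -0.87, SE 0.17, adjusted p = 0.00289), while Pcna, the sliding clamp, had log2 -0.21, adjusted p = 0.0932, and 0.00831 without IFNG 3. Of 35 mitosis genes 18 were called lower and 1 higher, a call lost without IFNG 1, IFNG 2, control 1 or control 3. Mki67, a marker of dividing cells, had 192, 194 and 141 CPM with IFNG and 372, 498 and 479 CPM without it (log2 -1.16, SE 0.15, adjusted p = 0.00026). Ccnb2, a mitotic cyclin, had 77.7, 84.1 and 72.6 CPM with IFNG and 148, 145 and 130.5 CPM without it (log2 -0.67, SE 0.10, adjusted p = 0.000691). Myc, a driver of growth, had 35.9, 40.5 and 27.4 CPM in treated libraries, against 158, 160.1 and 145 CPM in controls (log2 -1.97, SE 0.15, adjusted p = 5.53e-06). In Mki67, Ccnb2 and Myc all treated libraries lay below all controls. Linker histone genes moved in opposite directions: Hist1h1c had 112, 106 and 108 CPM in treated libraries, against 9.89, 9.56 and 6.61 CPM in controls (log2 3.77, SE 0.14, adjusted p = 5.31e-08). H1f0 had 81.2, 82.5 and 78.3 CPM with IFNG and 374, 353 and 378 CPM without it and fell (adjusted p = 1.38e-07).

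CDK inhibitor and p53 target genes fell more often than they rose. Of 26 such genes 12 were called lower and 4 higher. Trp53, which encodes p53, had 100.2, 98.98 and 82.2 CPM in treated libraries, against 337, 313 and 315 CPM in controls (log2 -1.59, SE 0.11, adjusted p = 3.07e-06). Cdkn1a, the CDK inhibitor p21, had 36.8, 37.96 and 44.7 CPM in treated libraries, against 244, 254 and 246 CPM in controls (log2 -2.45, SE 0.11, adjusted p = 1.18e-07). Sesn2, an inhibitor of mTORC1 signalling, fell by 1.71 on the log2 scale. Gadd45g, a stress sensor, rose, with 13.5, 12.5 and 6.02 CPM in treated libraries, against 1.77, 1.99 and 1.55 CPM in controls (log2 2.73, SE 0.38, adjusted p = 0.000365). Its lowest treated library, IFNG 3, still lay above the controls. Cell counts or cycle phases were not measured in these files.

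Genes of energy metabolism and translation mostly changed by little, and the counts called depended on the scale and on single libraries. Glycolysis and hypoxia genes had 13 called higher and 4 lower of 27: Hif1a had 247, 229.8 and 363 CPM in treated libraries, against 126, 134 and 136 CPM in controls (log2 1.28, SE 0.16, adjusted p = 0.000197). Vegfa had 10.5, 14.3 and 9.34 CPM with IFNG and 65.4, 66.3 and 52.8 CPM without it (log2 -2.27, SE 0.18, adjusted p = 8.46e-06). Of 79 genes of the respiratory chain 28 were called higher and 2 lower, but 13 and 7 with library totals, 43 higher without IFNG 3 and 16 to 18 higher without a control. Of 79 ribosomal protein genes 31 were called lower (median -0.25), or 61 with library totals, 17 without control 1 and 13 without control 2, while 4 were called higher without IFNG 3. Mitochondrially encoded genes took 1.05%, 1.02% and 1.88% of the counts of IFNG 1, 2 and 3, and 0.793%, 0.881% and 1.16% of the counts of control 1, 2 and 3. IFNG 1 and IFNG 2 thus lay below control 3. Of 7 tested 4 were called higher, 7 without IFNG 1 or IFNG 2, and each call was lost with library totals or without control 1 or control 2.

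Redox genes split by enzyme. In the list 9 were called higher and 8 lower of 27, or 7 and 11 with library totals. Gpx1, the general glutathione peroxidase (ENSMUSG00000063856, chromosome 9, 108338903 to 108340343), had 826, 863 and 593 CPM in treated libraries, against 97.4, 94.6 and 95.97 CPM in controls (log2 3.18, SE 0.15, adjusted p = 2.51e-07). Gpx4, which reduces lipid peroxides, had 138, 147 and 117 CPM in treated libraries, against 317, 284 and 269 CPM in controls (log2 -0.93, SE 0.12, adjusted p = 0.000187). Both changes were larger than the spread within the groups, and IFNG 3 was the lowest treated library of each. Txnrd1, a thioredoxin reductase, fell (log2 -0.70, SE 0.08, adjusted p = 9.24e-05). Sod3, a secreted superoxide dismutase, rose, with 36.2, 33.8 and 38.9 CPM with IFNG and 9.76, 7.37 and 3.50 CPM without it (log2 2.45, SE 0.23, adjusted p = 3.41e-05). In the arginine and polyamine list Slc7a1, the arginine transporter, fell, with 197, 198 and 176 CPM in treated libraries, against 575, 579 and 606 CPM in controls (log2 -1.43, SE 0.09, adjusted p = 1.43e-06), and Odc1, the first enzyme of polyamine synthesis, rose (log2 0.68, SE 0.08, adjusted p = 0.000148). Gch1, which makes the cofactor of nitric oxide synthases, was not called (log2 -0.42, adjusted p = 0.354).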

How the data were processed

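RNA-seq counts per gene, as deposited by the authors, were used without change: 1 column of whole reads per B16 library, on GRCm38 per the submitters' processing notes. Which aligner, counter, annotation and strand setting were used is not given in those notes or the labels. Each column had a sample, so 0 columns were left unassigned. Gene symbols, positions and exon lengths were taken from GENCODE M21, which named 52135 IDs and 11226 of the tested ones.

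Genes kept by filterByExpr were tested with edgeR 4.0.16 (R 4.3.3): TMM factors, robust glmQLFit and glmQLFTest of the 3 treated against the 3 control libraries, Benjamini-Hochberg adjustment over all 11240 tested genes and a threshold of 0.05. "Called" means past it. The SE of a log2 change is its absolute value divided by the square root of F. CPM are counts over library totals, and levels per kb use exon length. The procedure was checked on simulated counts with few changed genes, as many rises as falls and the same spread in every library. That check does not cover the scale between the groups or the wider spread of IFNG 3. Depth sets the precision: with 2573805 counts in the shallowest library, a gene with few reads in the controls has only a bound or a counting interval.

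The 65 gene lists and the genes named were chosen with earlier results of these data known. By rule the text names the 15 largest gains and losses per kb, the largest rise, largest fall and most abundant member of each list, any member of lists of at most 15 tested genes, runs of neighbours, 15 genes of the pathway and the lineage, and genes with a printed promoter. Some genes that these rules name are not reported here. Other genes were picked as examples with their values in view. The groups share library numbers, and same-numbered libraries did not deviate together in every case, so the comparison is unpaired. Alternatives were RLE factors, library totals, no filter, a filter at 1 CPM, DESeq2 1.42.0, limma-voom (limma 3.58.1), a block on the library number, IFNG 1 and IFNG 2 summed, and each library left out. Promoters are those of RefSeq on GRCm38.p6, at hand for 8859 tested genes. Figures were drawn with matplotlib 3.10.9.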

Additional observations from a re-analysis of the deposited data

How the results depend on the processing

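The numbers of genes called stayed within 1.5 times of 2486 higher and 2472 lower under 13 of 14 alternatives. With library totals in place of TMM factors 3872 genes were called lower and 1702 higher, and the median of all tested genes was -0.20. Leaving out 1 library gave 1823 to 3188 genes called higher and 1869 to 3180 lower, with the most calls without IFNG 3. DESeq2 called 2390 higher and 2070 lower, and limma-voom 2477 and 2537. With the replicate block, a term for the library number, 2876 were higher and 2889 lower. Deviations of same-numbered libraries from their group means had correlations of 0.283, 0.00496 and 0.281, and IFNG 2 correlated best with control 1 (0.249), so the libraries were not treated as pairs, and whether equal numbers mark a shared batch is not settled by these values. Summing IFNG 1 and IFNG 2 gave 2322 higher and 2223 lower. No called gene named in the text changed its direction under these alternatives. Named genes lost their call most often without control 1 (33 genes) and gained one most often without IFNG 3 (34 genes). Depth limits the genes with 0 to 3 reads in a group, whose fold is given as a bound or an interval.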
